A study of Mus musculus with 6 samples.

Results

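The sodium pump and the excitability channels of the muscle surface membrane were examined as 6 genes, *Atp1b1*, *Atp1b2*, *Scn4a*, *Clcn1*, *Kcnj2* and *Kcnj12*, picked by symbol out of the 55401 genes in the count matrix. Each symbol stood on 1 row, and all 6 genes passed the filter on low counts. RNA was taken from C2C12, a line of mouse muscle precursors able to form myotubes, 2 d post differentiation in DMEM with 2% horse serum. Each of the groups, *Phf2* KO and control, held 3 libraries. The KO cells were a sorted, uncloned pool that had received 4 plasmids with guides to *Phf2*, which encodes a histone H3K9me2 demethylase, and the controls were sorted mock cells that carried the same kind of plasmid with a guide without a match in the mouse genome; the sample labels call them wild type. The wells of each group came from 1 pool in a single experiment, so p-values measure the spread between wells only, and effects of *Phf2* loss and of other differences between the pools cannot be told apart.

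The sodium pump is a P-type ATPase that carries sodium out of the cell and potassium in. Its alpha subunit binds ATP and the ions, and its beta subunit is needed for the folding and membrane delivery of the alpha subunit. In a muscle fiber, the action potential is carried by the voltage-gated sodium channel Nav1.4, encoded by *Scn4a*. The chloride channel ClC-1, encoded by *Clcn1*, dampens excitability, and its loss causes myotonia. The inward rectifiers Kir2.1 (*Kcnj2*) and Kir2.2 (*Kcnj12*) hold the resting potential, and the hyperpolarization of myoblasts that Kir2.1 provides is an early step of differentiation.

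*Phf2* itself fell to 38.8% of the control level. Its level was 102.4, 95.5 and 104.6 CPM (counts scaled to the library total, TMM-normalized) in control replicates 1, 2 and 3, and 41.1, 37.6 and 38.6 CPM in KO replicates 1, 2 and 3 (log2 fold change -1.37, quasi-likelihood test of edgeR, p adjusted by Benjamini-Hochberg over 17310 genes: 8.32e-09). Of all 17310 genes tested, 3.26% were called lower in KO cells and 3.22% higher (adjusted p under 0.05 in the same test). Of 12 markers of myotubes, 12 were tested and 9 fell in KO cells at this threshold. Their summed level was between 9520 and 11153 CPM in the controls and between 7610 and 8507 CPM in the KO libraries. The number called was 6 with limma on TPM and without control replicate 1 or KO replicate 3. It was 12 with exactTest and without control replicate 3. The study had named some of these markers as lower from these same libraries, so the count is not independent evidence. None of 10 proliferation markers passed the threshold (0 at an unadjusted p under 0.05), and their summed level was 311.4 to 331.3 CPM in the controls and 294.2 to 324.2 CPM in KO cells. The lists of neural and Schwann, blood and endothelial, epithelial and cardiac markers summed to at most 13.1 CPM in any library, and *Sox10*, *Tie1*, *Adgre1*, *Krt18*, *Epcam*, *Cldn4* and *Myl7* had 0 counts in all 6. Of these lists 1 gene passed the threshold, *Tubb3*, a tubulin also made in neurons, which fell. Its call was lost with limma-voom, on TPM and in 5 of the 6 fits without 1 library, being kept without control replicate 3. In bulk RNA, fewer myotube nuclei and less RNA of a gene per nucleus cannot be told apart, and the part of the myotube markers in the results below was not tested.

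Of the 6 genes, *Atp1b1*, *Atp1b2* and *Scn4a* fell in *Phf2* KO cells and *Clcn1*, *Kcnj2* and *Kcnj12* did not pass the threshold, so 3 of 6 were called, all lower. Of the 17310 genes tested, 6.48% were called, 3.26% lower and 3.22% higher. The log2 fold change of each of the 6 genes was below 0, as was that of 50.2% of all genes. Each KO library lay below each control library for 3 of the 6 genes. These are the same 3 that were called on these libraries, so the separation is not separate evidence. Of all genes tested, 12.2% were separated in this direction and 12.9% in the other. The median log2 fold change was -0.41 for the 6 genes and -0.001 for all genes.

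**Figure D1:**
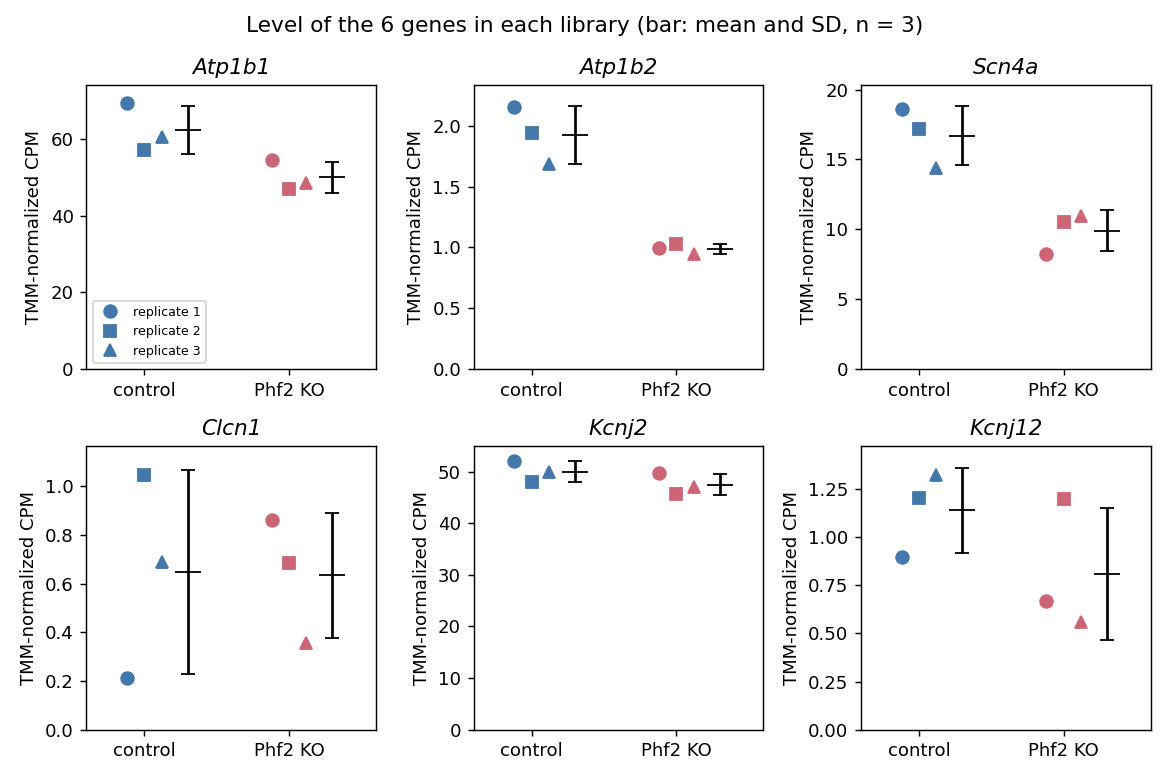
TMM-normalized CPM of each gene (vertical axes from 0) in 3 control and 3 *Phf2* KO libraries, with the mean and SD beside the points and a symbol shape for each replicate number. The groups are apart for *Atp1b1*, *Atp1b2* and *Scn4a* and overlap for *Clcn1*, *Kcnj2* and *Kcnj12*.

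*Scn4a* (ENSMUSG00000001027, chromosome 11, 106318592 to 106353288, minus strand, up to 24 exons in GENCODE M21, GRCm38) encodes the pore-forming subunit of Nav1.4. Its level was 18.6, 17.2 and 14.4 CPM in control replicates 1, 2 and 3, and 8.24, 10.5 and 10.96 CPM in KO replicates 1, 2 and 3. The lowest control library thus stood above the highest KO library. The mean went from 16.7 ± 2.12 CPM to 9.91 ± 1.46 CPM (SD, n = 3), leaving 59.3%. On the log2 scale the difference was -0.75 (standard error 0.13, 95% interval -1.03 to -0.48, adjusted p = 0.00291 from the quasi-likelihood test). *Scn4a* stayed past the threshold in all 6 fits to 5 libraries, where its highest adjusted p was 0.0253. It was not past it with limma on TPM, where the adjusted p was 0.159 (pseudocount 1) and 0.166 (pseudocount 0.1). The TPM of the reference gene did not overlap between the groups, with 4.62 to 6.01 in the controls and 2.52 to 3.64 in KO cells. Loci that StringTie assembled over the gene on its strand, 1 or 2 per library, did overlap. Their summed TPM was 4.45 to 11.9 in the controls and 2.57 to 6.50 in KO cells.

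*Atp1b1* (ENSMUSG00000026576, chromosome 1, 164437109 to 164458355, minus strand, up to 6 exons) encodes the beta-1 subunit of the pump. Its level was 69.4, 57.1 and 60.5 CPM in the control replicates and 54.4, 46.9 and 48.5 CPM in the KO replicates, in the order 1, 2 and 3. Replicate 1 was the highest of its group on both sides, and the gap between the groups was small. The mean fell from 62.3 ± 6.34 CPM to 49.9 ± 3.96 CPM (SD, n = 3), or 80.1% of control, which is -0.32 on the log2 scale (standard error 0.077, 95% interval -0.49 to -0.15, adjusted p = 0.0285 from the quasi-likelihood test). The adjusted p was 0.0915 without control replicate 1, 0.125 without KO replicate 2 and 0.136 without KO replicate 3. Blocking on the replicate number gave 0.00244. The last 617 bases of the gene overlap *Nme7* on the opposite strand. The libraries were made with a directional kit, and whether the strand was used in counting is not given in the sources used here.

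*Atp1b2* (ENSMUSG00000041329, chromosome 11, 69599736 to 69605942, minus strand, up to 7 exons) encodes the beta-2 subunit, first known as an adhesion molecule on glia. It was a rare transcript here, with 54 to 123 counts per library (13.5 to 30.75 read pairs, at about 4 counts each). Its level was 2.16, 1.94 and 1.68 CPM in the controls and 0.992, 1.03 and 0.946 CPM in the KO libraries. All KO libraries lay close together and below the controls. The mean was 1.93 ± 0.237 CPM in control and 0.988 ± 0.0413 CPM in KO cells (SD, n = 3), or 51.3% of control. On the log2 scale the difference was -0.96 (standard error 0.26, 95% interval -1.52 to -0.41, adjusted p = 0.0403 from the quasi-likelihood test). This call was not kept when a library was left out, with an adjusted p of 0.144, 0.128 and 0.0513 without control replicates 1, 2 and 3, and 0.0921, 0.0974 and 0.114 without KO replicates 1, 2 and 3. Blocking on the replicate number gave 0.0518. On the TPM scale the groups overlapped, since *Atp1b2* in KO replicate 2 stood at 1.13 TPM, the level of control replicate 1, while KO replicates 1 and 3 stood at 0.515 and 0.510 TPM. The cause of the difference between the CPM and the TPM of that library was not tested.

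*Kcnj2* (ENSMUSG00000041695, chromosome 11, 111066164 to 111076821, plus strand, 2 exons) was the steadiest of the 6 genes. It stood at 52.1, 48.0 and 49.9 CPM in the control replicates and at 49.7, 45.7 and 47.1 CPM in the KO replicates. In both groups replicate 1 was the highest and replicate 2 the lowest, and the groups overlapped, while each KO library was lower than the control of its number. Blocking on that number gave a log2 fold change of -0.07 and an adjusted p of 0.483 in the quasi-likelihood test. The mean was 50.002 ± 2.04 CPM in control and 47.5 ± 1.99 CPM in KO cells (SD, n = 3). The log2 fold change was -0.07 with a 95% interval from -0.20 to 0.05 (quasi-likelihood adjusted p = 0.548), an interval that leaves out a fall as large as that of *Scn4a* or *Atp1b2*.

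*Kcnj12* (ENSMUSG00000042529, chromosome 11, 61022564 to 61071131, plus strand, up to 3 exons) was rare, with 38 to 77 counts per library (9.5 to 19.25 read pairs). Its level was 0.894, 1.20 and 1.32 CPM in the control replicates and 0.667, 1.20 and 0.561 CPM in the KO replicates. KO replicate 2 lay among the controls, and the other KO libraries lay below them. The log2 fold change was -0.50 with a 95% interval from -1.28 to 0.28 (quasi-likelihood adjusted p = 0.515), so neither no change nor a change as large as that of *Scn4a* lay outside the interval. It was -0.89 without KO replicate 2, -0.29 without KO replicate 3, and -0.04 and -0.09 with limma on TPM at a pseudocount of 1 and 0.1.

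*Clcn1* (ENSMUSG00000029862, chromosome 6, 42286685 to 42315756, plus strand, up to 24 exons) was barely detected, with 12 to 61 counts per library. A pair of 150 bp reads adds about 4 counts in this matrix, so these are some 3 to 15.25 read pairs. The level was 0.210, 1.047 and 0.687 CPM in the control replicates and 0.862, 0.685 and 0.355 CPM in the KO replicates. The lowest and the highest of all 6 libraries were both controls. The log2 fold change was -0.04 with a 95% interval from -1.21 to 1.14 (quasi-likelihood adjusted p = 0.986), and its sign turned with the library left out, so a change was not detectable at this depth. The last 445 bases of *Clcn1* overlap *Fam131b* on the opposite strand. Transcripts assembled over *Clcn1* on that strand stood at 15.1 to 17.6 TPM, and whether they belong to *Fam131b* was not checked.

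**Figure D2:**
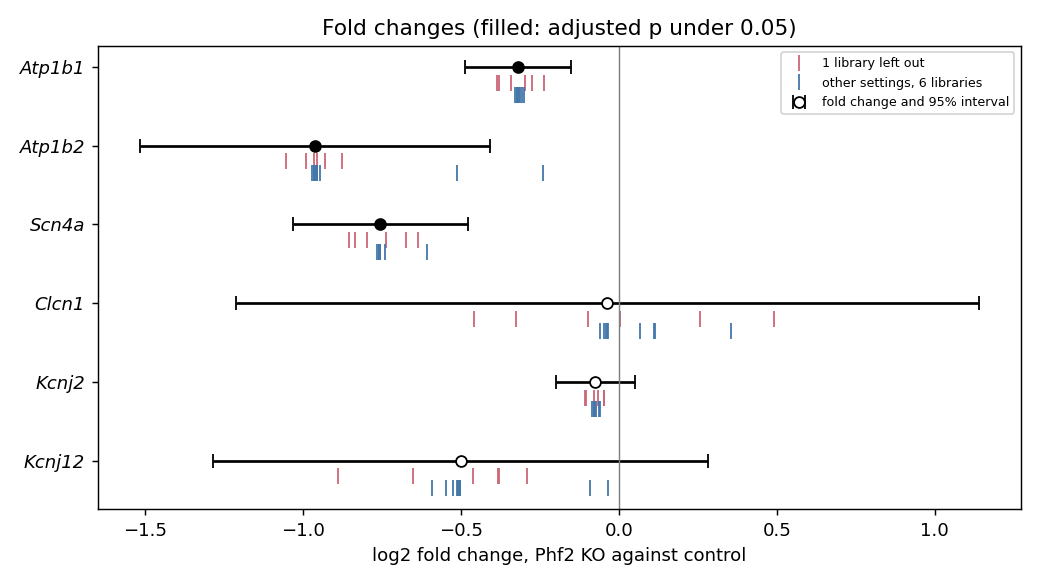
Log2 fold change of *Phf2* KO against control (horizontal axis) for each gene, with its 95% interval, and below it the values of the fits without 1 library and of the other settings. *Scn4a* lies at -0.75 and *Kcnj2* at -0.07, and the values of *Clcn1* fall on both sides of 0.

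The promoters of the genes were read for motifs of muscle factors, since 3 of the genes were lower together. RefSeq windows (GRCm38.p6) from 250 bases before to 50 bases after a transcript start were found for 5 of the 6 genes. No window was found for *Atp1b2*, which fell. Each was searched on both strands for the E-boxes CAGCTG and CACCTG, which myogenic bHLH factors bind, and for a form of the MEF2 factors' site, CTA and TAG with 4 bases between them. CAGCTG was in the window of *Kcnj2*, CACCTG in those of *Clcn1* and *Kcnj12*, and the MEF2 form in that of *Clcn1*. Of all 32851 windows, 16.3% held CAGCTG, 20.2% held CACCTG and 3.69% held the MEF2 form. The windows of *Scn4a* and *Atp1b1*, which fell, held none of these motifs. Those of *Scn4a* and *Kcnj12* lie inside the gene spans given above, so they do not belong to the outermost start. Other starts and more distant sequence were not searched, so a lack of motifs in the promoters of the genes that fell is not shown. The 250 bases before the start are shown for these 3 genes, with motif matches in capitals. The *Atp1b1* stretch (chr1:164458356-164458605, minus strand) is rich in CpG, with 24 CpG and 70.4% G and C. That of *Scn4a* (chr11:106349391-106349640, minus strand) has 4 CpG and 61.6% G and C, and that of *Clcn1* (chr6:42286435-42286684, plus strand) has 3 CpG and carries its MEF2 form 51 bases and its E-box 125 bases before the start.
Atp1b1: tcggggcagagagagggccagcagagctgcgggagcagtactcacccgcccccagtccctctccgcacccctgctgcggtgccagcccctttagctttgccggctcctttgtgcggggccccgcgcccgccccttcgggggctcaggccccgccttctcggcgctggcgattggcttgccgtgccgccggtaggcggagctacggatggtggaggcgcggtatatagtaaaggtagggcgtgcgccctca
Scn4a: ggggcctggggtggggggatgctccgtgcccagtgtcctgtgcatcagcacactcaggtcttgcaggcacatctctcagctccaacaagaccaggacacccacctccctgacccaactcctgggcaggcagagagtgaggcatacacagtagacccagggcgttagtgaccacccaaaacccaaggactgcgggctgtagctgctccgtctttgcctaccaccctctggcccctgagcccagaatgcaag
Clcn1: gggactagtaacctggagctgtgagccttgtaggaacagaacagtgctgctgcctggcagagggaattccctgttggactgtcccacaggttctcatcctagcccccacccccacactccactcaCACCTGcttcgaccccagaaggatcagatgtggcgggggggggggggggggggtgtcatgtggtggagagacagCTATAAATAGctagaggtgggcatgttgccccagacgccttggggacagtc

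*Kcnj2* and *Kcnj12* encode close relatives, and their coding sequences in GENCODE M21 were 72.9% identical over 1266 aligned bases. Their longest shared run was 17 bases, much shorter than a read of 150 bp. The beta subunits are more distant, with 64.0% identity between *Atp1b1* and *Atp1b2* and a longest shared run of 19 bases.

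Levels were compared between genes as TPM, which is scaled by transcript length. The order in control cells was *Atp1b1* (52.5 ± 5.36 TPM), *Kcnj2* (19.8 ± 0.856 TPM), *Scn4a* (5.30 ± 0.697 TPM), *Atp1b2* (1.01 ± 0.125 TPM), *Kcnj12* (0.688 ± 0.494 TPM) and *Clcn1* (0.258 ± 0.170 TPM; SD, n = 3). In KO cells the order was the same, with 42.4 ± 3.15, 19.0 ± 0.689, 3.15 ± 0.576, 0.720 ± 0.359, 0.640 ± 0.428 and 0.370 ± 0.255 TPM. The first 3 genes were apart from their neighbours in each library. *Atp1b2* and *Kcnj12* overlapped within both groups, as did *Kcnj12* and *Clcn1*. *Atp1b1* and *Kcnj2* were thus the main transcripts of the 6 at day 2, and *Clcn1* was near the limit of detection.

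The log2 ratio of *Atp1b1* to *Atp1b2* was computed in each library. From CPM it was 5.01, 4.88 and 5.17 in the controls and 5.78, 5.51 and 5.68 in KO cells, and each KO library was above each control (difference 0.64, two-sided exact permutation p = 0.1, the smallest that 3 against 3 libraries allow). From TPM the difference was 0.28 and the groups overlapped (two-sided exact permutation p = 0.5). Without KO replicate 2 it was 0.71, and without KO replicate 1 it was 0.04. The log2 ratio of *Kcnj2* to *Kcnj12* TPM was 5.08 ± 0.992 in control and 5.14 ± 1.12 in KO cells (SD, n = 3), a difference of 0.06 (two-sided exact permutation p = 0.9). From CPM it was 5.47 ± 0.340 and 5.95 ± 0.613, a difference of 0.48 (two-sided exact permutation p = 0.3), and on both scales the groups overlapped.

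The levels of *Atp1b1* and *Atp1b2* were set beside those of the other beta subunits, of which *Atp1b4* had at most 4 counts in any library and was not tested. *Atp1b3* was the most abundant beta subunit, with 105.2 ± 9.67 TPM in control and 100.5 ± 1.98 TPM in KO cells (SD, n = 3), and its counts did not pass the threshold (log2 fold change -0.08, quasi-likelihood adjusted p = 0.487). *Atp1b1* made up 30.6% to 35.5% of the beta subunit TPM in the controls and 27.9% to 31.6% in KO cells, and *Atp1b2* at most 0.804% in any library. The summed beta TPM was 144.7 to 167.3 in the controls and 141.1 to 145.1 in KO cells, and the groups overlapped.

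**Figure D3:**
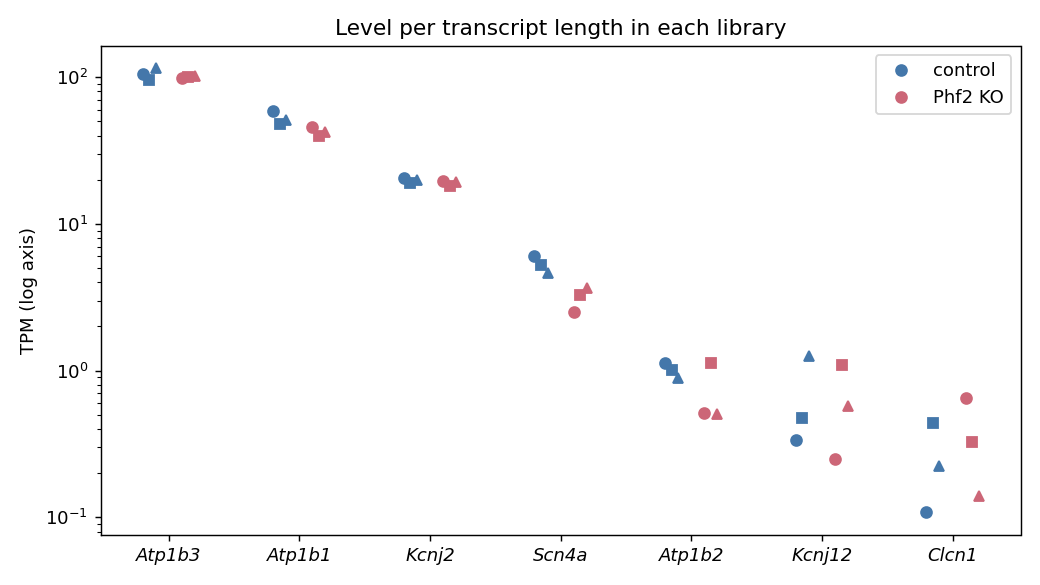
TPM on a log axis in each library of *Atp1b3* and the 6 genes (horizontal axis), with control and *Phf2* KO side by side and a symbol shape for each replicate number. The genes run from 105.2 TPM for *Atp1b3* to 0.258 TPM for *Clcn1* in control cells, and the scatter between libraries is widest for *Kcnj12* and *Clcn1*.

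The surrounding families were counted in the same fit, in which 3.26% of all genes tested were called lower and 3.22% higher. Of the 15 genes of the sodium pump and its FXYD regulators, 9 were tested and 4 fell, *Atp1b1* and *Atp1b2* among them, with a median log2 fold change of -0.18. In the quasi-likelihood test none was higher past the threshold, while edgeR's exactTest called 1 higher. Without 1 library, between 2 and 3 of these genes were past the threshold. The study picked 1 gene of this list from these same libraries, so the count is not independent evidence. Of 14 voltage-gated sodium channel genes, 9 were tested and 2 fell, *Scn4a* among them, with a median of -0.35. All 9 had a log2 fold change below 0, as had 50.2% of all genes, and 3 had a mean of at least 5 CPM. The number below 0 was 8 without control replicate 2 or any 1 KO library, and 7 and 8 with limma on TPM at a pseudocount of 1 and 0.1. The number called was 1 without control replicate 2, 0 in both TPM fits and 3 when blocking on the replicate number.

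Of 11 CLC chloride channel and transporter genes, 9 were tested and none passed in either direction, with a median of -0.07. At an unadjusted p under 0.05 there were 3. *Ostm1*, the partner of the lysosomal transporter ClC-7, had an adjusted p of 0.0526 and was named after its value was seen. In this list 1 gene was called lower by DESeq2, when blocking on the replicate number, with upper-quartile normalization, with no filter, with the filter of 1 CPM and with counts divided by 4, and none by exactTest or limma-voom. Of 17 inward rectifier and sulfonylurea receptor genes, 12 did not pass the filter on low counts. None of the other 5 passed the threshold (1 at an unadjusted p under 0.05, *Abcc9*, a sulfonylurea receptor, with means of 0.207 CPM in control and 0.0148 CPM in KO cells), while exactTest and limma-voom each called 1 and DESeq2 none. The median of -0.50 was that of *Kcnj12*; it was -0.22 without KO replicate 2, -0.29 without KO replicate 3 and -0.30 under the filter of 1 CPM, and *Kcnj2* was the only one of these 5 above a mean of 5 CPM.

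Among 25 other potassium channel genes known from muscle, 9 were tested, 3 fell and 1 rose, with a median of -0.38. Of all genes tested, 3.26% fell and 3.22% rose. *Kcnc1*, a delayed rectifier of the Kv3 family, went from 3.11 ± 0.122 to 1.40 ± 0.321 CPM (SD, n = 3), or -1.15 on the log2 scale (quasi-likelihood adjusted p = 0.00877). *Kcnn3*, a small-conductance calcium-activated channel of embryonic and denervated muscle, went from 18.8 ± 2.52 to 11.7 ± 1.41 CPM (log2 fold change -0.69, adjusted p = 0.00317). *Kcnh2*, the hERG channel, rose from 12.1 ± 1.65 to 18.4 ± 1.63 CPM (log2 fold change 0.61, adjusted p = 0.00476), and its lowest KO library at 16.6 CPM was above its highest control at 13.9 CPM.

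Of 16 other ion transporters of the surface membrane, 14 were tested, 1 fell and 1 rose, with a median of 0.007. *Slc16a3*, a lactate transporter, had a log2 fold change of -0.67 (quasi-likelihood adjusted p = 0.00898, and 0.0678 without control replicate 2). Of 13 genes that anchor channels to the membrane skeleton, 13 were tested, 3 fell and 1 rose, with a median of -0.02. *Ank1*, an ankyrin that links the membrane skeleton and the sarcoplasmic reticulum to the sarcomere, fell from 87.9 ± 3.44 to 60.3 ± 1.64 CPM (log2 fold change -0.54, adjusted p = 3.40e-05). *Sntb2*, a syntrophin, which binds dystrophin, rose by 0.20 on the log2 scale (adjusted p = 0.0172), and this call was kept in 2 of the 6 fits without 1 library, those without control replicate 3 and KO replicate 1. Over the 7 lists without the 6 genes, 62 genes were tested, 10 fell and 3 rose, and the median log2 fold change was -0.16. Of all genes tested, 3.26% fell and 3.22% rose, with a median of -0.001. The lists were chosen with earlier results of these data known, so the counts are not independent evidence.

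**Figure D4:**
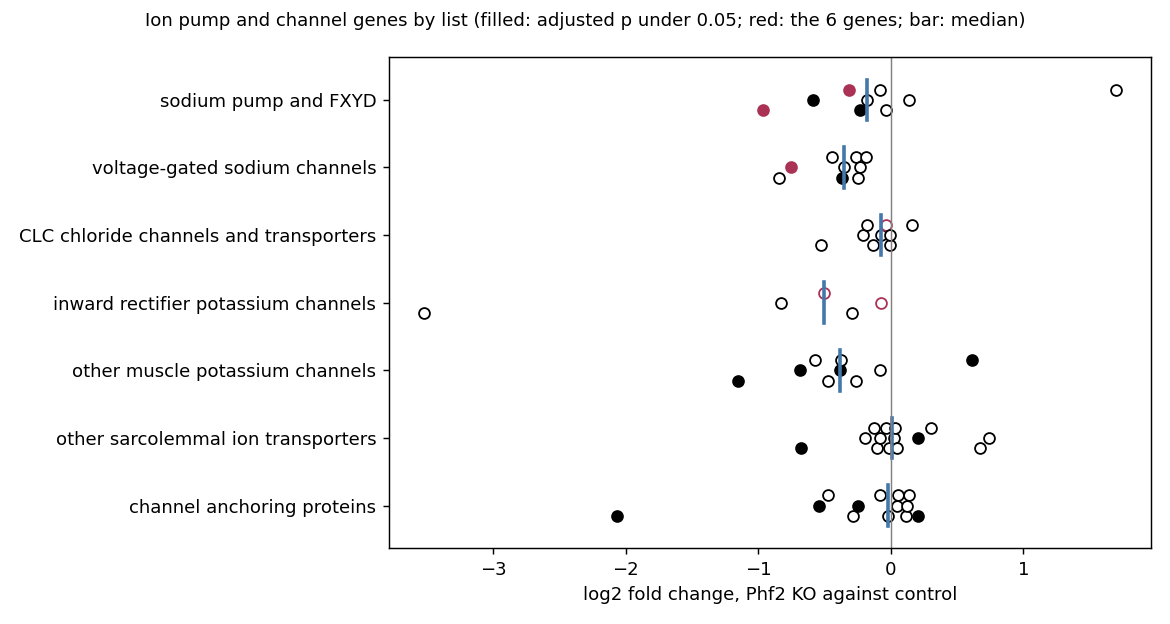
Log2 fold change of *Phf2* KO against control (horizontal axis) for the tested genes of 7 lists (rows), filled where the adjusted p was under 0.05, with the 6 genes in red and the median of a list as a bar. The median of the 5 inward rectifier and sulfonylurea receptor genes lies at -0.50 and that of the other ion transporters at 0.007.

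The genes whose profile over the 6 libraries was most like that of each gene were found by the root mean square distance of centred log2 CPM, among 10923 genes whose mean reached 5 CPM. For *Scn4a* these were *Obsl1*, a sarcomere linker, at 0.085 and *Ryr3*, a calcium release channel, at 0.097. For *Atp1b2* they were *Klhl40*, a muscle kelch protein, at 0.057 and *Pgm5*, an adhesion protein of muscle, at 0.061. For *Atp1b1* they were *Fbln1* at 0.046 and *Xdh* at 0.048. For *Kcnj2* they were *Sar1b* and *Mrpl34*, both at 0.017, for *Kcnj12* they were *Hes1* at 0.12 and *Pgk1-rs7* at 0.12, and for *Clcn1* they were *Gm45837* at 0.28 and *Dynlt1a* at 0.29. The distances of *Clcn1* and *Kcnj12* were larger than those of the other 4 genes.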

How the data were processed

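Polyadenylated RNA of 6 libraries was sequenced by the authors as paired-end reads of 150 bp, mapped to mm10 by HISAT2 and quantified by StringTie; versions and annotation are not given in the sources used here. The matrix the authors deposited gives StringTie's estimated counts, rounded. In single-transcript genes above 500 counts, 1 count stood for 74.98 to 74.99 covered bases (library medians), so a read pair of 300 bases adds about 4 counts. Per-library deposited tables give TPM, a signal scaled by the authors within each library, and coverage; rows of reference genes were used. Totals ran from 52526109 to 67502788 counts.

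The test was run with edgeR 4.0.16 under R 4.3.3. After filterByExpr (minimum count 10) and TMM scaling, groups were compared by the quasi-likelihood test with robust estimates, *Phf2* KO against control without covariates, with Benjamini-Hochberg adjustment over 17310 genes and a threshold of 0.05. Intervals are at 95% and come from the same fit. Single values were compared by two-sided exact permutation tests. The alternatives were exactTest, DESeq2 1.42.0, limma 3.58.1 (voom, and on log2 of TPM plus 1 or 0.1), other scalings and filters, counts divided by 4, the replicate number as a block and leaving out each library. Libraries of equal replicate number varied alike. Over 10923 genes, deviations from the group means correlated at 0.221, 0.281 and 0.182 for equal numbers, and at most 0.021 for unequal ones. Neither the labels nor the study state a pairing, and 3 libraries per group cannot establish one. The methods of the study have no block, so it was kept as an alternative. Scripts were tested on simulated data. Figures were drawn with Python 3.11.15.

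The 6 genes and the gene lists were chosen with earlier results of these data known. Named were the 6 genes, *Phf2*, the pump subunits, at most 5 genes past the threshold per list with the largest change, and the 2 nearest profiles of each gene; *Ostm1*, *Abcc9* and *Tubb3* were named after their values were seen. Coordinates are from GENCODE M21 (GRCm38), matched by identifier without version. Raw reads were not analysed here, and some genes and sequences under this rule are not reported here.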

Additional observations from a re-analysis of the deposited data

How the results depend on the processing

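The direction of *Atp1b1*, *Atp1b2*, *Scn4a*, *Kcnj2* and *Kcnj12* was the same under each of the 12 alternatives with all 6 libraries and without each library. *Atp1b1* was not past the threshold with limma-voom (log2 fold change -0.31, adjusted p = 0.0525) or with limma on TPM at a pseudocount of 1 (-0.30) or 0.1 (-0.31), and *Atp1b2* was not with limma-voom (-0.95, adjusted p = 0.0610), the replicate block (-0.96), and limma on TPM (-0.24 and -0.51). *Scn4a* lost its call in the TPM fits alone (-0.61 and -0.74). Without 1 library, the log2 fold change ran from -0.38 to -0.24 for *Atp1b1*, -1.05 to -0.88 for *Atp1b2*, -0.85 to -0.64 for *Scn4a*, -0.89 to -0.29 for *Kcnj12*, -0.11 to -0.05 for *Kcnj2*, and -0.46 to 0.49 for *Clcn1*. *Clcn1*, never past the threshold, also changed sign with limma-voom (0.11), the replicate block (0.066) and the TPM fits (0.12 and 0.35), and it did not pass the filter of 1 CPM in 3 libraries. Of the 6 genes, 1 passed with limma-voom, 0 in both TPM fits, 2 with the block, and 1 to 2 without 1 library. Of the other genes of the 7 lists, 13 passed, against 1 in each TPM fit and 7 to 12 without 1 library. Over all genes 1122 passed, against 127 and 153 in the TPM fits and 468 to 1039 without 1 library, with 468 without control replicate 2, 577 without KO replicate 2 and 613 without KO replicate 3. The replicate block gave 1316, and of the pump and channel genes named with a call it changed that of *Atp1b2* alone. The log2 ratio of *Kcnj2* to *Kcnj12* TPM differed by 0.057, with -0.52 to 0.60 without 1 library, of which -0.49 was without control replicate 3 and -0.52 without KO replicate 1; that of *Atp1b1* to *Atp1b2* ran from 0.037 to 0.71. The cause of the loss in the TPM fits was not tested. Depth limits *Clcn1*, *Kcnj12* and *Atp1b2*, which rest on 12 to 123 counts per library.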
